A study of Mus musculus with 10 samples.

Results

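The late and the early days of pressure overload were compared within banded hearts. Of the 10 mRNA samples of the series, the 5 from hearts with transverse aortic banding (TAB) were used: the samples of days 14 and 28 are called late, and those of days 3, 5 and 7 are called early. They were chosen by their operation and day as labelled, and not by any measured value. The 5 sham samples of the same days served as a reference level and to ask whether a gene also differed between late and early days without banding. All samples came from left ventricles of male C57BL/6J mice kept specific pathogen-free and operated on at 8 weeks of age, so a late heart was also an older heart, and within TAB the time since surgery and age cannot be told apart. There was 1 sample per operation and day. How many animals were pooled into a sample is not given in the sources used here, and the characteristics of the late TAB sample of day 14 give 15 days where its title gives 14. The samples of a stage are therefore different days, and the spread used below is the spread between those days.

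Banding narrows the aortic arch, so that the left ventricle has to eject against a raised pressure. In the first days after such surgery the heart is known to go through a wound-like phase, in which macrophages enter, fibroblasts and endothelial cells divide, and fibroblasts become myofibroblasts that deposit and crosslink collagen. Cardiomyocytes meanwhile enlarge, re-express genes of the fetal heart such as the natriuretic peptides, and reduce genes of fatty acid oxidation. The later weeks are known as a compensated phase, in which wall stress is lowered by the thicker wall and the inflammation subsides.

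Values are log2 of the normalized array intensity, and a difference is the mean of the 2 late samples minus the mean of the 3 early samples, so that 1 unit is a 2-fold difference. The labelled tissue was checked first. The cardiomyocyte genes Myh6, the adult heavy chain of cardiac myosin, and Tnnt2, cardiac troponin T, were at 15.16 to 15.47 and 14.81 to 15.08 in the 5 TAB samples. The summed intensity of 7 atrial genes was 34234 to 41958 in early TAB, 33263 to 39538 in late TAB and 12071 to 27519 in sham samples. That sum is mostly Nppa, which ventricles also use under load. The median of the list ran the other way, at -0.47, -0.53 and -0.28 on days 3, 5 and 7 and -0.88 and -0.30 on days 14 and 28 in TAB relative to the sham mean, and sham day 14 was the highest at 0.68. The array spots that the scanning software did not find made up 40.8% to 47.3% of all probes on a TAB array. Sham day 28 stood apart from the other libraries. On this array 97 of the 10535 genes found on all 10 arrays lay at least 1 unit below the other 9 arrays, against at most 11 genes on any other array. No TAB difference takes that library's values, but all 10 arrays entered the filter on values below 1, the normalization and the choice of a probe per gene.

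Over all 16113 genes, limma with Benjamini-Hochberg adjustment called 0 genes (0%) between late and early TAB, with a lowest adjusted p of 0.0683. At an unadjusted p under 0.05 it listed 2316 genes (14.4%), against 831 genes (5.16%) in the same comparison of the sham samples, where it also called 0 genes. Other settings called more genes. Among the 10997 genes found on all 5 TAB arrays, limma called 417, of which 320 (2.91%) were lower late and 97 (0.882%) were higher late. With the trend and robust options over all genes it called 485. In the sham samples these alternatives called 1 of 11181 genes and 2 of all genes. Below, an adjusted p is from limma over the 10997 genes found on all 5 TAB arrays unless another is named, and it is given with the SE of that fit. A single gene compared by exact permutation of 2 samples against 3 cannot reach a two-sided p under 0.2.

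A second description used no test. A gene was counted as separated when both late samples lay above, or both below, all 3 early samples and the means differed by at least 1. Of all 16113 genes, 552 (3.43%) were separated lower late and 293 (1.82%) higher late in TAB. In sham, 201 (1.25%) were separated lower and 171 (1.06%) higher. Dim genes made up much of both counts. Among the genes found on all 5 TAB arrays, 248 (2.26%) were separated lower and 47 (0.427%) higher, while among those found on all 5 sham arrays 50 were lower and 7 higher. Of the 552 and 293 genes, 12 and 13 were separated in the same direction in sham, beside the 1.25% and 1.06% of all genes.

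**Figure D1:**
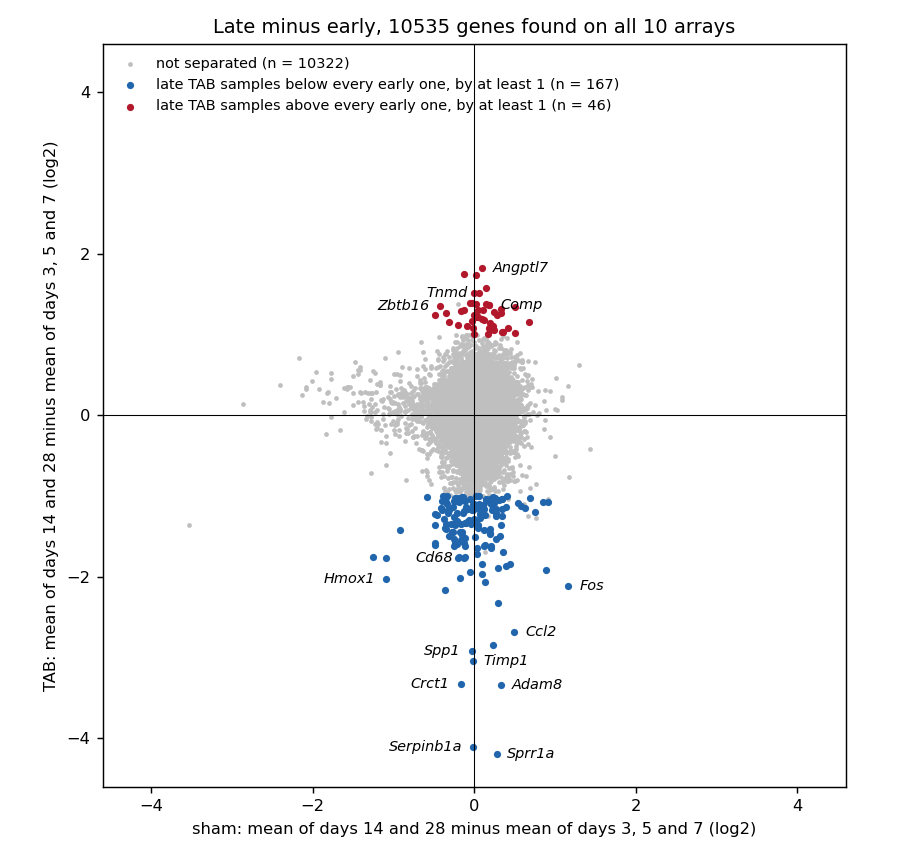
Late minus early in TAB (vertical axis, log2) against late minus early in sham (horizontal axis, log2) for the 10535 genes found on all 10 arrays; each point is a gene, blue where both late TAB samples lay at least 1 unit on average and in order below the early ones (167 genes) and red where they lay above (46 genes). The blue points reach -4.19 for Sprr1a on the vertical axis, and 1 of the 167 blue and 0 of the 46 red genes were separated in the same direction in sham.

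The 248 well-measured genes that were lower late were mostly above sham on the early days. In 235 of them all 3 early TAB samples lay above all 5 sham samples. The highest early value was on day 5 in 153 genes, on day 7 in 71 and on day 3 in 24. The larger step came between days 7 and 14 in 199 genes, with a median of -1.07, and the median step from day 14 to day 28 was -0.41. On day 28, 219 of the 248 genes were lower than on day 14. The genes were not all back at sham levels: in 168 both late TAB samples were still above every sham sample, in 35 both lay within the sham range, and in 5 both lay below it.

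The gene with the largest difference was Sprr1a, a small proline-rich protein that cardiomyocytes make under stress. Its levels were 12.59, 12.24 and 11.94 on days 3, 5 and 7 and 8.23 and 7.90 on days 14 and 28, against 7.71 to 8.56 in sham. All early TAB samples were high and both late ones were inside the sham range, a 18.3-fold lower mean (difference -4.19 ± 0.21, SE, adjusted p = 0.00012). Serpinb1a, an inhibitor of neutrophil serine proteases, was at 10.72, 11.41 and 11.37 early and 7.39 and 6.72 late, with sham at 6.21 to 6.84, so that day 14 was still above sham and day 28 was within it (difference -4.11 ± 0.26, adjusted p = 0.000451). Crct1, a gene of the cornified envelope of skin, was at 10.65, 9.26 and 10.50 early and 6.93 and 6.69 late against 6.62 to 7.14 in sham. The probe named Sfn|Gm7850, whose symbol joins a 14-3-3 protein of epithelia with a predicted gene, was at 8.64, 9.12 and 8.36 early and 5.91 and 5.81 late, with sham at 5.26 to 5.85. Among these genes, Sprr1a, Serpinb1a and Sfn|Gm7850 were also called in the test of the TAB difference against the sham difference given further below. With the day as a block that test called 0 genes. In the comparison of late and early TAB by limma over all 16113 genes, the adjusted p was 0.0683 for both Sprr1a and Serpinb1a.

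**Figure D2:**
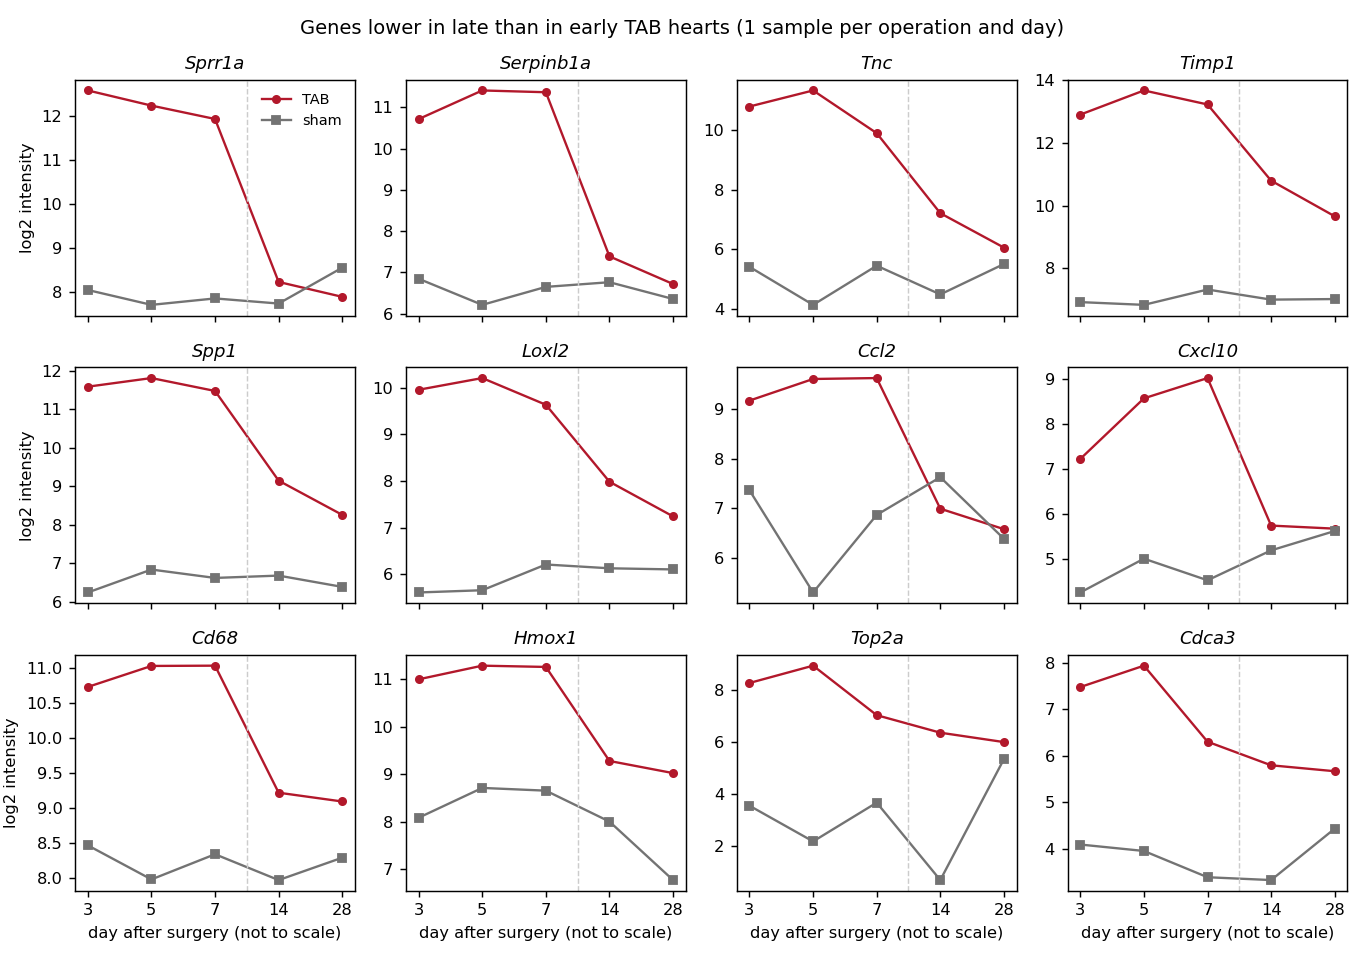
Level (log2 intensity) of 12 genes by day after surgery in TAB (red circles) and sham (grey squares), 1 sample per point, with a dashed line between the early and the late days. In each panel both late TAB samples lie below all 3 early ones, and Timp1, Spp1 and Loxl2 stay above all sham samples on day 28 while Sprr1a and Ccl2 do not.

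The genes were next read by role, through 36 lists of genes. Each list is described by its separated members and its median, to be read beside the 3.43% of all genes that were separated lower, the 1.82% separated higher and a median over all genes of 0.03 in TAB and 0.02 in sham. A whole-ventricle sample cannot tell fewer cells of a type from less RNA per cell.

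**Figure D3:**
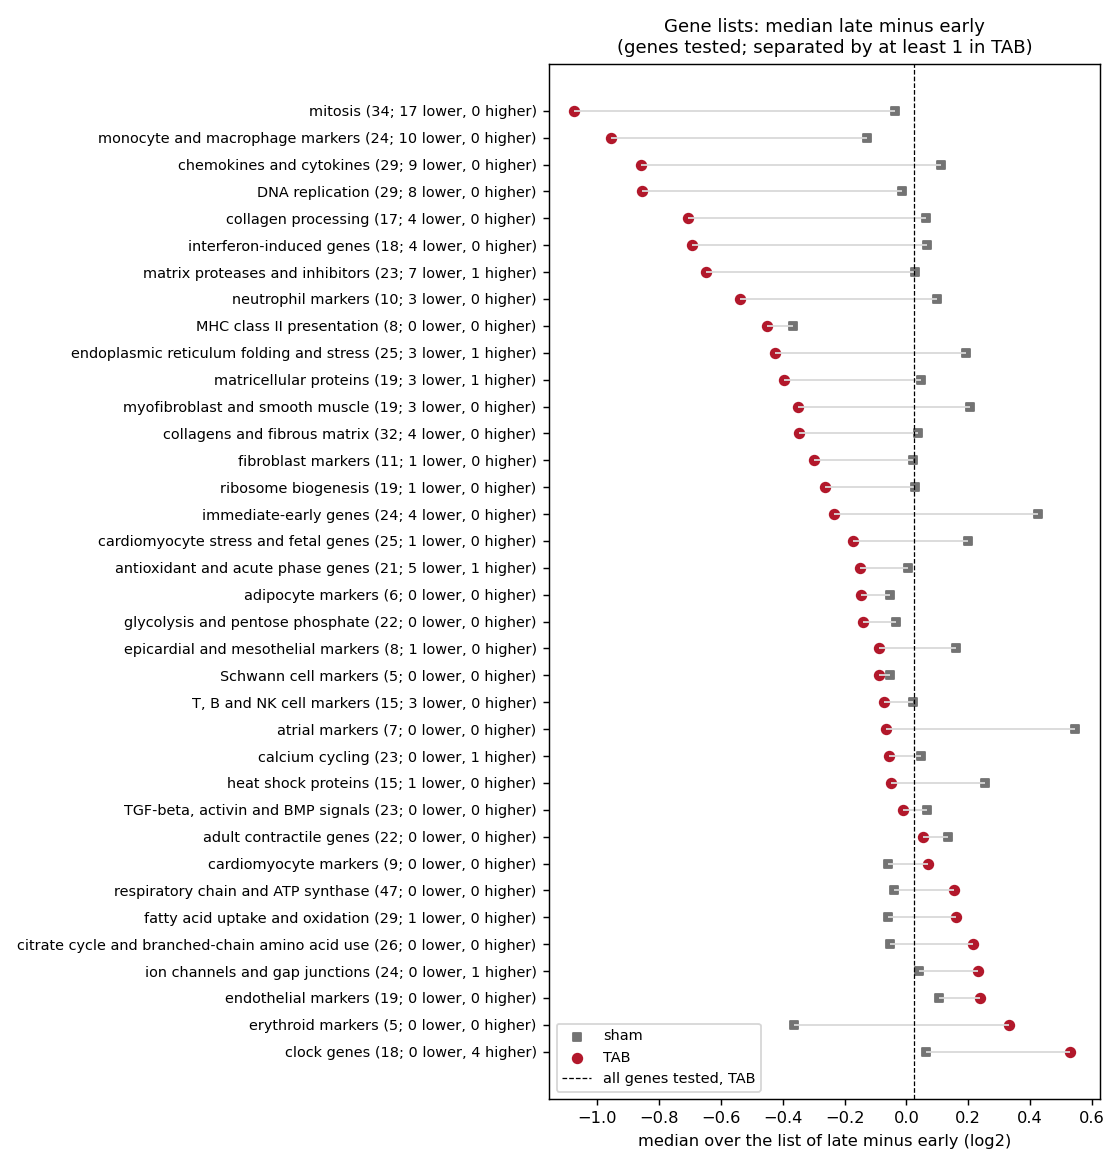
Median late minus early (log2) over each of the 36 gene lists in TAB (red circles) and sham (grey squares), ordered by the TAB median; the label of each list gives the genes tested and those separated lower and higher late in TAB, and the dashed line is the TAB median of all genes tested. The mitosis, macrophage, chemokine and DNA replication lists have the lowest TAB medians, from -1.07 to -0.85, and the clock genes the highest, 0.53.

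The matricellular proteins signal between cells and matrix rather than bear load. Tenascin C, encoded by Tnc and a marker of tissue repair, was at 10.80, 11.34 and 9.91 early and 7.22 and 6.06 late against 4.14 to 5.51 in sham, which it still exceeded on day 28 (difference -4.04 ± 0.42, adjusted p = 0.00332). Osteopontin, encoded by Spp1 and made by macrophages and fibroblasts, was at 11.58, 11.81 and 11.47 early and 9.14 and 8.25 late, with sham at 6.24 to 6.84 (difference -2.92 ± 0.25, adjusted p = 0.00137). Wisp1, a secreted Wnt-induced protein, had a lower late mean (difference -1.69 ± 0.26, adjusted p = 0.0133). Of the 19 of 20 matricellular genes measured, 3 were separated lower and 1 higher, with a median of -0.40 in TAB and 0.05 in sham. Leaving out day 28, 7 or 14 gave TAB medians of -0.04, -0.19 and -0.69. The higher one was Comp, cartilage oligomeric matrix protein, which binds and organizes collagen fibrils: 7.07, 7.41 and 7.87 early and 9.06 and 8.58 late, with day 3 within and the other days above the sham range of 6.62 to 7.19 (difference 1.37 ± 0.25, adjusted p = 0.0244).

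The structural collagen genes were high on both early and late days. Of 32 collagen and fibre genes measured, 4 were separated lower late, namely Col3a1, Fn1, Col1a2 and Col6a3, and none higher, and the list median was -0.35 in TAB and 0.04 in sham. Relative to the mean of the sham samples, the list median was 1.79, 2.08 and 1.79 on days 3, 5 and 7 and 1.88 and 1.03 on days 14 and 28, so that the late difference lay in day 28. Without day 28 the list median was 0.04, and without day 14 it was -0.82. Fibronectin, Fn1, an early provisional matrix protein, was at 10.001, 10.96 and 10.70 early and 9.52 and 8.36 late, above the sham range of 6.98 to 7.31 on all days (difference -1.61 ± 0.36, adjusted p = 0.0436). Col1a2, a chain of the main fibrillar collagen, was at 10.93, 11.31 and 11.08 early, 10.33 and 8.88 late and 6.74 to 7.30 in sham (difference -1.50 ± 0.35, adjusted p = 0.0529). Fibromodulin, Fmod, a proteoglycan that binds collagen fibrils, was higher late at 9.21 and 8.56 than early at 7.83, 8.05 and 7.89 (difference 0.96 ± 0.21, adjusted p = 0.04), and sham was at 6.996 to 7.40. All 5 TAB values of Fmod lay above the sham range.

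Of 17 genes of collagen processing, all had a lower late mean, 4 were separated lower and none higher, with a median of -0.71 in TAB and 0.06 in sham. Without day 28 the TAB median was -0.42. Loxl2, a lysyl oxidase that crosslinks collagen, was at 9.96, 10.21 and 9.64 early, 7.99 and 7.24 late and 5.61 to 6.21 in sham (difference -2.32 ± 0.25, adjusted p = 0.00364). Its other probe gave a smaller difference of the same sign, -1.15. Lox, the founding lysyl oxidase, was at 9.25, 9.85 and 10.09 early, 8.66 and 6.77 late and 3.22 to 5.30 in sham (difference -2.02 ± 0.47, adjusted p = 0.0518). Serpinh1, the collagen chaperone, had a difference of -1.05 ± 0.22 (adjusted p = 0.0358). Matrix proteases and their inhibitors counted 7 separated lower and 1 higher of 23 measured. Timp1, the inhibitor of matrix metalloproteinases that is induced by cytokines, was at 12.90, 13.67 and 13.22 early and 10.79 and 9.66 late and was the brightest of the group, with sham at only 6.84 to 7.32 (difference -3.04 ± 0.33, adjusted p = 0.00374). Adam8, a membrane protease of leukocytes, was at 9.28, 9.67 and 10.12 early, 6.77 and 5.94 late and 5.13 to 6.16 in sham. Timp4, the inhibitor that healthy heart muscle makes, was the separated gene that was higher late, at 4.998, 5.33 and 5.72 early and 6.41 and 6.96 late within a sham range of 5.64 to 7.05, and it was found on 4 of the 5 TAB arrays.

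Markers of the cells that make matrix had medians closer to that of all genes than collagen processing did. Of 11 fibroblast markers 1 was separated lower, Thy1, and none higher, and their median was -0.30 (0.02 in sham). Without day 28 that median was 0.19, of the opposite sign, and with the brightest probe or the mean of all probes of each gene it was -0.06. Their summed intensity was 44272 to 54765 in early, 34755 to 53210 in late and 22749 to 25939 in sham samples. Of 19 myofibroblast and smooth muscle genes 3 were separated lower, with a median of -0.35 (0.20 in sham), or -0.19 without day 28. In 9 of the 19 genes both late samples lay below all early ones, and in 5 both lay above. Over all 16113 genes these counts by order alone were 2842 and 2960. Acta2, the smooth muscle actin that marks myofibroblasts, was at 9.17, 9.19 and 9.27 early and 8.26 and 7.84 late (difference -1.16 ± 0.17, adjusted p = 0.0106), and day 28 was below the sham range of 7.92 to 8.49. Actn1, the non-muscle actinin of stress fibres, had a difference of -1.41 ± 0.18 (adjusted p = 0.00686).

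Several matrix genes could not enter these tests, because a probe with a scaled intensity below 1 on any array was removed and some genes were below 1 only in sham. With such values set to 1, Cthrc1, a secreted protein of activated fibroblasts, was at 11.13, 11.85 and 11.56 early and 10.16 and 7.40 late, and no sham sample was above 2.39. P4ha3, a collagen prolyl hydroxylase, was at 6.30, 6.86 and 6.61 early and 3.86 and 2.99 late. Both genes had the order of the separated genes, and neither had an adjusted p under 0.05 in limma over the 19942 genes of that setting, where the values were 0.38 and 0.125. Col1a1 did not exceed 2.69 on any array by its probe, also where Col1a2 was bright, and gives no level here.

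By list median and by summed intensity, markers of macrophages were lower late, at levels between those of early TAB and sham. Of 24 monocyte and macrophage markers, 10 were separated lower and none higher, 16 were called lower by limma among those found on all TAB arrays, and the median was -0.95 in TAB and -0.13 in sham. Their summed intensity was 31168 to 38036 in early TAB, 16076 to 19576 in late TAB and 9371 to 11303 in sham, and each marker tested was found on at least 1 array. The macrophage lysosomal protein Cd68 was at 10.73, 11.03 and 11.04 early, 9.22 and 9.10 late and 7.98 to 8.47 in sham (difference -1.77 ± 0.16, adjusted p = 0.00209). Ccr2, the receptor by which blood monocytes follow Ccl2, was at 7.45, 7.81 and 7.70 early and 6.30 and 5.96 late, with sham at 4.56 to 5.46 (difference -1.52 ± 0.18, adjusted p = 0.00448). Gpnmb, Trem2 and Mpeg1, genes of lipid-handling or phagocytic macrophages, had differences of -1.77, -1.35 and -1.52. C1qa, a complement gene of resident macrophages, had a difference of -0.96 ± 0.19 (adjusted p = 0.0293). In these 6 genes both late samples stayed above the sham range, except that day 28 of Gpnmb, at 5.39, lay within it. How far the other differences between the stages move with the macrophage content was not tested.

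Among chemokines and cytokines 9 of 29 were separated lower and none higher, with a median of -0.86 in TAB and 0.11 in sham. Ccl2 and Ccl7, the neighbouring monocyte attractants, differed by -2.68 ± 0.20 (adjusted p = 0.000894) and -2.81 ± 0.26 (adjusted p = 0.00215). Ccl2 was at 9.17, 9.61 and 9.62 early and 6.99 and 6.58 late, and its sham values spread widely, from 5.30 to 7.63, around the late TAB values. Cxcl10, an interferon-induced attractant of T cells, had its highest value on day 7, with 7.22, 8.57 and 9.03 early and 5.74 and 5.67 late against 4.25 to 5.62 in sham (difference -2.57 ± 0.43, adjusted p = 0.0177). Cxcr6, a chemokine receptor of T and NK cells, was found on every TAB array and on no sham array, and was at 7.97, 8.57 and 9.02 early and 5.46 and 4.47 late (difference -3.55 ± 0.34, adjusted p = 0.00252). Cxcr6, Lck and Cd3d were the 3 separated of 15 lymphocyte genes, of which 2 were found on no array and Cd3d on only 2 TAB arrays. The median of that list was -0.07, and it turned to 0.13 without day 3 and to -0.25 without day 5 or day 28. Il6, a cytokine of the acute phase, was found on all early TAB arrays and on no late one. By intensities that include those spots not found, its early mean was 8.22-fold higher. Il1b had a difference of -1.52 ± 0.32 (adjusted p = 0.0381).

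Interferon-induced genes were highest on days 5 and 7. Their median, relative to the mean of the sham samples, was 0.17, 1.08 and 1.24 on days 3, 5 and 7 and 0.18 and 0.35 on days 14 and 28. Of 18 measured, 4 were separated lower and none higher. Isg15, a ubiquitin-like protein of the antiviral response, was at 7.72, 8.94 and 9.29 early and 7.61 and 7.51 late (difference -1.09 ± 0.38, adjusted p = 0.146), with day 3 near the late values. Irf7, the factor that amplifies interferon, had a difference of -1.14 ± 0.22 (adjusted p = 0.0292). The MHC class II genes, the antigen-presenting set, had a median of -0.45 in TAB and -0.37 in sham, and 0 of 8 was separated. Without day 5 the TAB median was -0.18. Neutrophil markers counted 3 of 10 separated lower, but 4 of the 10, Mmp8 among the separated ones, were found on no array and their summed intensity was 446 to 683 early and 349 to 433 late against 355 to 463 in sham.

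**Figure D4:**
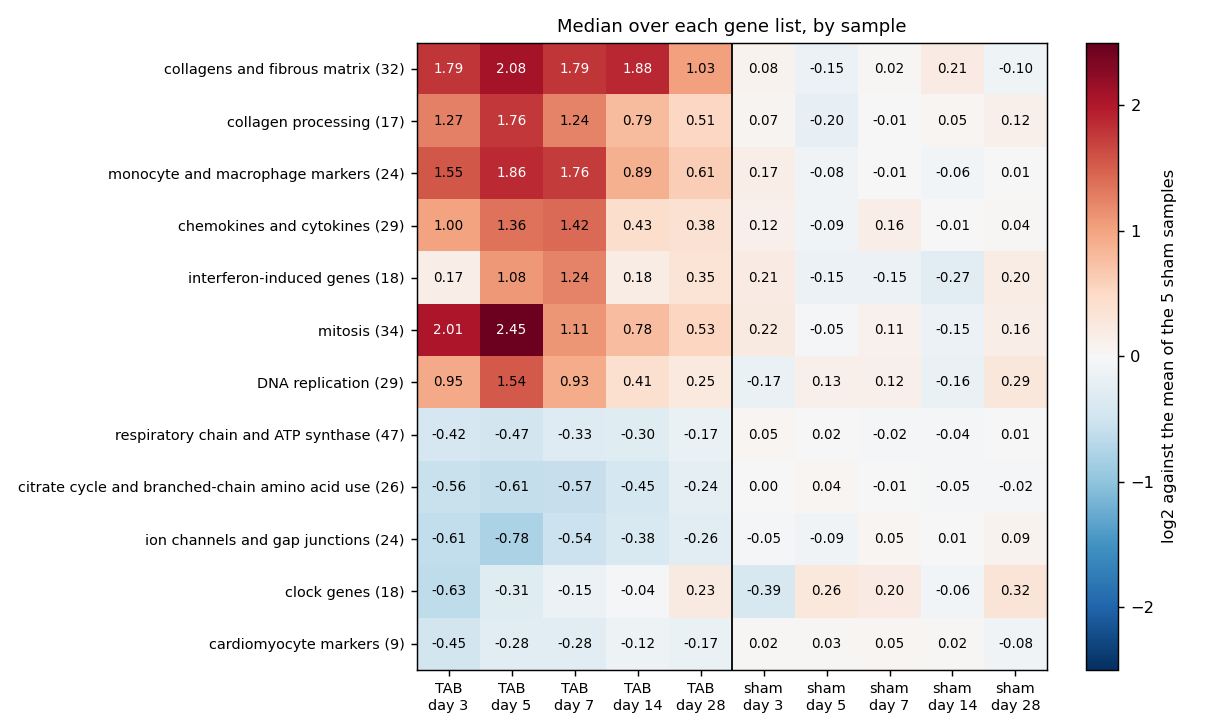
Median over the genes of 12 lists in each of the 10 samples, as log2 against the mean of the 5 sham samples (colour scale and printed value; the number of genes tested is in brackets). The mitosis list goes from 2.45 on TAB day 5 to 0.53 on day 28, the interferon list is at 0.17 on TAB day 3 and 1.24 on day 7, and the respiratory chain list goes from -0.42 on day 3 to -0.17 on day 28.

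Cell division genes were lower late by list median. Of 34 mitosis genes measured, 17 were separated lower and none higher, with a median of -1.07 in TAB and -0.04 in sham. The early samples differed among themselves: relative to sham the list median was 2.01, 2.45 and 1.11 on days 3, 5 and 7 and 0.78 and 0.53 on days 14 and 28. By this median days 3 and 5 were high and day 7 lay between them and the late days. By summed intensity, which its brightest members dominate, the lowest early sample lay below both late ones, with 5294 to 11143 early, 5457 to 5827 late and 3885 to 4707 in sham. Limma called 1 of the 25 members found on all TAB arrays. That member was Birc5, survivin, which guides chromosome segregation, at 8.02, 8.26 and 7.13 early and 6.51 and 6.25 late, with sham at 5.63 to 6.05 (difference -1.42 ± 0.30, adjusted p = 0.0374). Top2a, the topoisomerase that untangles replicated chromosomes, was at 8.29, 8.95 and 7.05 early and 6.38 and 6.01 late (difference -1.90 ± 0.45, adjusted p = 0.0529), and all TAB samples were above the sham range of 0.71 to 5.36. Ccna2, cyclin A, was at 8.40, 9.08 and 7.12 early and 6.79 and 6.11 late. The proliferation marker Mki67 was at 6.41, 6.48 and 5.54 early and 4.08 and 3.98 late, and was found on 3 TAB arrays. DNA replication genes had a like course: 8 of 29 were separated lower and none higher, the median was -0.85 in TAB and -0.02 in sham, and relative to sham it was 0.95, 1.54 and 0.93 on days 3, 5 and 7 and 0.41 and 0.25 on days 14 and 28. Cdt1, which licenses replication origins, and Fen1, which trims Okazaki fragments, had differences of -1.13 ± 0.24 (adjusted p = 0.04) and -1.04 ± 0.22 (adjusted p = 0.0395).

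Promoters of mitosis genes are known to carry a short element called CHR, which is bound by the complex that restricts these genes to dividing cells, together with CCAAT boxes. Windows from 250 bases before to 50 bases after the start of transcription, from RefSeq on GRCm38.p6, matched 28 of the 34 measured mitosis genes by symbol. The 4 shown are those of the separated mitosis genes found on all TAB arrays that had a window and the largest late difference: Top2a, Kif22, Cdca3 and Cdca8. Capitals mark the CHR element, TTTGAA, which on the opposite strand of the window reads TTCAAA. Capitals also mark the box CCAAT, which on the opposite strand of the window reads ATTGG. The longer capital run in Cdca8 is an overlap of both. The windows are Top2a at chr11:99024140-99024439 on the minus strand, Kif22 at chr7:127042371-127042670 on the minus strand, Cdca3 at chr6:124829926-124830225 on the plus strand, Cdca8 at chr4:124936868-124937167 on the minus strand.
Top2a: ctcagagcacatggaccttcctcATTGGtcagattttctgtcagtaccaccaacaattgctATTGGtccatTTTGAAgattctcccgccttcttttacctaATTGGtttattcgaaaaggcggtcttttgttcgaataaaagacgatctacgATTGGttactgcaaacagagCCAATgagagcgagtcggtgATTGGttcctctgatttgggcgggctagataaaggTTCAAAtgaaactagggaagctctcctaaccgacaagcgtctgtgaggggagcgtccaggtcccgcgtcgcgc
Kif22: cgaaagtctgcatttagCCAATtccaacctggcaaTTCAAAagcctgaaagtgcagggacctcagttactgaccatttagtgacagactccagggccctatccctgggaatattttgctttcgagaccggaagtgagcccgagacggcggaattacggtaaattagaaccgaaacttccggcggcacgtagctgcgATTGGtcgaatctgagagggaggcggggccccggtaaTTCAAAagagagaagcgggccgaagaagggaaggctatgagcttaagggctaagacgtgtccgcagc
Cdca3: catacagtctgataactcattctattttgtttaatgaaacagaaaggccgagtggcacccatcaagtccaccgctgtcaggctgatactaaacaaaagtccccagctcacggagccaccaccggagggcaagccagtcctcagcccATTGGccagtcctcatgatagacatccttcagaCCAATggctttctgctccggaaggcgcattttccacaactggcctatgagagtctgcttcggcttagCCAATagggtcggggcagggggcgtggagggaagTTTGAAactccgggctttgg
Cdca8: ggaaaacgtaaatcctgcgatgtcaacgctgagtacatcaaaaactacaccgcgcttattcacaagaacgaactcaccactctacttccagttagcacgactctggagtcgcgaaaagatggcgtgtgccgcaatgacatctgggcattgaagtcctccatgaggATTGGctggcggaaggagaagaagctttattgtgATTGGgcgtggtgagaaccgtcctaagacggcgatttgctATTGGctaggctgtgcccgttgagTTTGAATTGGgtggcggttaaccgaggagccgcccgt
Each of the 4 windows held at least 1 CHR and 2 CCAAT matches, and Top2a held 2 and 6. Over the mitosis list, 21 of 28 genes (75%) held a CHR match and 23 (82.1%) a CCAAT match, against 20.2% and 41.1% of all 27025 genes with a window. Members separated lower late held a CHR match in 11 of 14 (78.6%), and those not separated in 10 of 14 (71.4%). Of the DNA replication genes 4 of 23 (17.4%) held a CHR match. Among the 11110 tested genes with a window the share was 14.9%. These matches describe the letters of the windows and do not show binding.

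Most cardiomyocyte lists had medians near that of all genes. Of 25 stress and fetal genes 1 was separated lower, Cd24a, and none higher, and the median was -0.17 in TAB and 0.20 in sham. Of the 25, 21 had a lower late mean, against 7620 of all 16113 genes. By order alone 7 were downward and 1 upward, against 2842 and 2960 of all 16113 genes. Without day 28 the TAB median was -0.06. Nppa, the atrial natriuretic peptide, was at 14.81, 15.02 and 15.12 early and 15.10 and 14.73 late, above the sham range of 12.73 to 13.98 on all days, and without day 7 or day 28 the sign turned (difference -0.06 ± 0.18, adjusted p = 0.869). Nppb, the B-type peptide, was at 14.43, 14.15 and 14.40 early and 14.10 and 13.84 late, with sham at 11.56 to 13.93 (difference -0.36 ± 0.17, adjusted p = 0.249). Acta1, the skeletal actin of the fetal programme, was at 13.64, 13.82 and 13.81 early and 14.07 and 14.20 late, with sham at 11.75 to 12.46 (difference 0.38 ± 0.15, adjusted p = 0.191). The TAB samples of Nppa and Acta1 lay above all sham samples at both stages, and day 28 of Nppb did not. Adult contractile genes had a median of 0.05 in TAB, and 0 of 22 was separated. Myom2, a myomesin of the sarcomere's M-band, was called higher late, at 14.32 and 14.32 against 13.71, 13.45 and 13.67 (0.71 ± 0.16, adjusted p = 0.0406), while its sham values of 13.64 to 14.67 had a difference of 0.51. The 9 cardiomyocyte markers had a median of 0.07. Myl2, which is among them, was saturated on every TAB array and gives no difference.

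Lists of mitochondrial metabolism had medians slightly above that of all genes. In the respiratory chain and ATP synthase 16 of 47 genes had both late samples above all early ones and 0 had both below, the median was 0.15 in TAB and -0.04 in sham, and 0 was separated by 1 unit or called. Over all genes the same order was met by 2960 of 16113 upward and 2842 downward. The citrate cycle and branched-chain amino acid genes had a median of 0.21, with 10 of 26 in upward and 2 in downward order. Fatty acid genes had a median of 0.16. Relative to the sham mean the list median was -0.51, -0.89 and -0.54 on TAB days 3, 5 and 7. On TAB days 14 and 28 it was -0.52 and -0.36, so that day 14 was near days 3 and 7 in the fatty acid genes. Their 1 separated gene ran the other way: Angptl4, an inhibitor of lipoprotein lipase, was at 10.27, 9.37 and 10.94 early and 8.94 and 7.95 late (difference -1.75 ± 0.43, adjusted p = 0.0574), with a sham range of 6.95 to 10.53 and a sham difference of -1.25. Without day 28 the citrate cycle median was 0.12. Ion channel and gap junction genes had a median of 0.23 (0.09 without day 28), calcium cycling genes -0.06 and glycolysis genes -0.14. The higher separated gene of each of the former 2 lists, Kcna5, a repolarizing potassium channel, and Fkbp1b, a ryanodine receptor partner, was found on only 2 TAB arrays.

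Several genes of stress responses had lower late means. Hmox1, heme oxygenase, was at 10.996, 11.28 and 11.26 early, 9.28 and 9.02 late and 6.77 to 8.71 in sham (difference -2.03 ± 0.17, adjusted p = 0.00137), and was also separated lower late in sham, where the difference was -1.10. Socs3, the feedback inhibitor of Il6 signalling, and Lcn2, an acute phase lipocalin, differed by -1.64 ± 0.21 (adjusted p = 0.00686) and -1.90 ± 0.37 (adjusted p = 0.0296). They belong to a list of 21 antioxidant and acute phase genes with 5 separated lower, 1 higher and a median of -0.15. Of 24 immediate-early genes, which respond within minutes to growth signals, 4 were separated lower. Fos was at 8.80, 8.47 and 8.56 early and 6.47 and 6.53 late (difference -2.11 ± 0.16, adjusted p = 0.000894), but its sham samples ran from 7.01 to 10.18 and were higher late (1.16), and the late TAB values lay below the sham range. Egr1 likewise ranged from 9.34 to 13.36 in sham, more than its TAB difference of -1.08. Myc, which drives growth and ribosome genes, had a difference of -1.23 ± 0.25 (adjusted p = 0.0335) with a sham range of 5.05 to 5.51. The ribosome biogenesis list had 1 gene separated lower of 19, 10 in downward and 1 in upward order, and a median of -0.26 (0.03 in sham). The endoplasmic reticulum list had 3 separated lower and 1 higher of 25, 12 in downward and 4 in upward order, and a median of -0.42 (0.19 in sham), or -0.17 with the brightest probe of each gene and -0.11 with 50 added before log2. The heat shock list had 1 separated lower of 15. The TGF-beta, endothelial, adipocyte, erythroid, atrial and Schwann cell lists had 0 separated genes. Their medians were -0.01, 0.24, -0.15, 0.33, -0.06 and -0.09. Of 8 epicardial and mesothelial genes 1 was separated, Aldh1a2, the retinoic acid synthase, at 8.63, 8.94 and 8.08 early and 6.26 and 5.96 late (difference -2.43 ± 0.24, adjusted p = 0.00271).

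Fewer genes were separated higher late than lower late, although by order alone the counts were 2960 higher and 2842 lower. Among separated genes found on all 5 TAB arrays, the 15 largest differences ran from 1.32 to 1.83, against -4.19 to -2.31 for the 15 largest in the other direction. Of the 47 well-measured genes, 18 had all early TAB samples below all 5 sham samples, 26 had both late samples within the sham range, and 12 had both above it. A small group was above sham late. Tnmd, tenomodulin, a membrane protein of tendon and of valve tissue, was at 6.41, 5.84 and 5.88 early and 7.51 and 7.60 late, and the sham samples, at 5.63 to 6.05, overlapped only the early ones (difference 1.51 ± 0.20, adjusted p = 0.00725). Comp, given above, was another. Angptl7, a secreted angiopoietin-like protein, was at 7.39, 8.23 and 7.91 early and 9.52 and 9.82 late (difference 1.83 ± 0.24, adjusted p = 0.00725), with sham values of 7.57, 9.21, 7.41, 7.55 and 8.76 on days 3, 5, 7, 14 and 28.

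Other genes were low early and near sham late. Gnb3, a G protein subunit, had the narrowest sham range of the 15, at 8.996 to 9.29, and was at 8.04, 7.84 and 7.86 early and 9.04 and 9.55 late in TAB (difference 1.38 ± 0.19, adjusted p = 0.00725). Thrsp, a regulator of lipid synthesis, was at 7.87, 7.42 and 8.27 early and 9.01 and 9.47 late, with sham at 8.75 to 9.69. Aqp1, the water channel of capillary endothelium, was at 9.996, 10.22 and 10.81 early and 11.32 and 12.01 late, with sham at 11.24 to 12.11 (difference 1.32 ± 0.28, adjusted p = 0.0365). Klf15, a factor that restrains hypertrophy and fibrosis and drives amino acid catabolism, was at 7.28, 8.003 and 7.79 early and 8.95 and 9.20 late (difference 1.39 ± 0.22, adjusted p = 0.0151), and only day 14 and day 28 reached the sham range of 8.73 to 10.41. Inmt, an amine methyltransferase, followed with 8.99, 8.28 and 9.35 early and 10.46 and 10.79 late, and sham at 10.12 to 11.61. The remaining genes among the 15 were Adh1, Fam117b, Sult1a1, Nr1d2, Tsc22d3, Zbtb16 and Scgb1c1. Of the 15, Nr1d2 was the one not called by limma (adjusted p = 0.204).

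**Figure D5:**
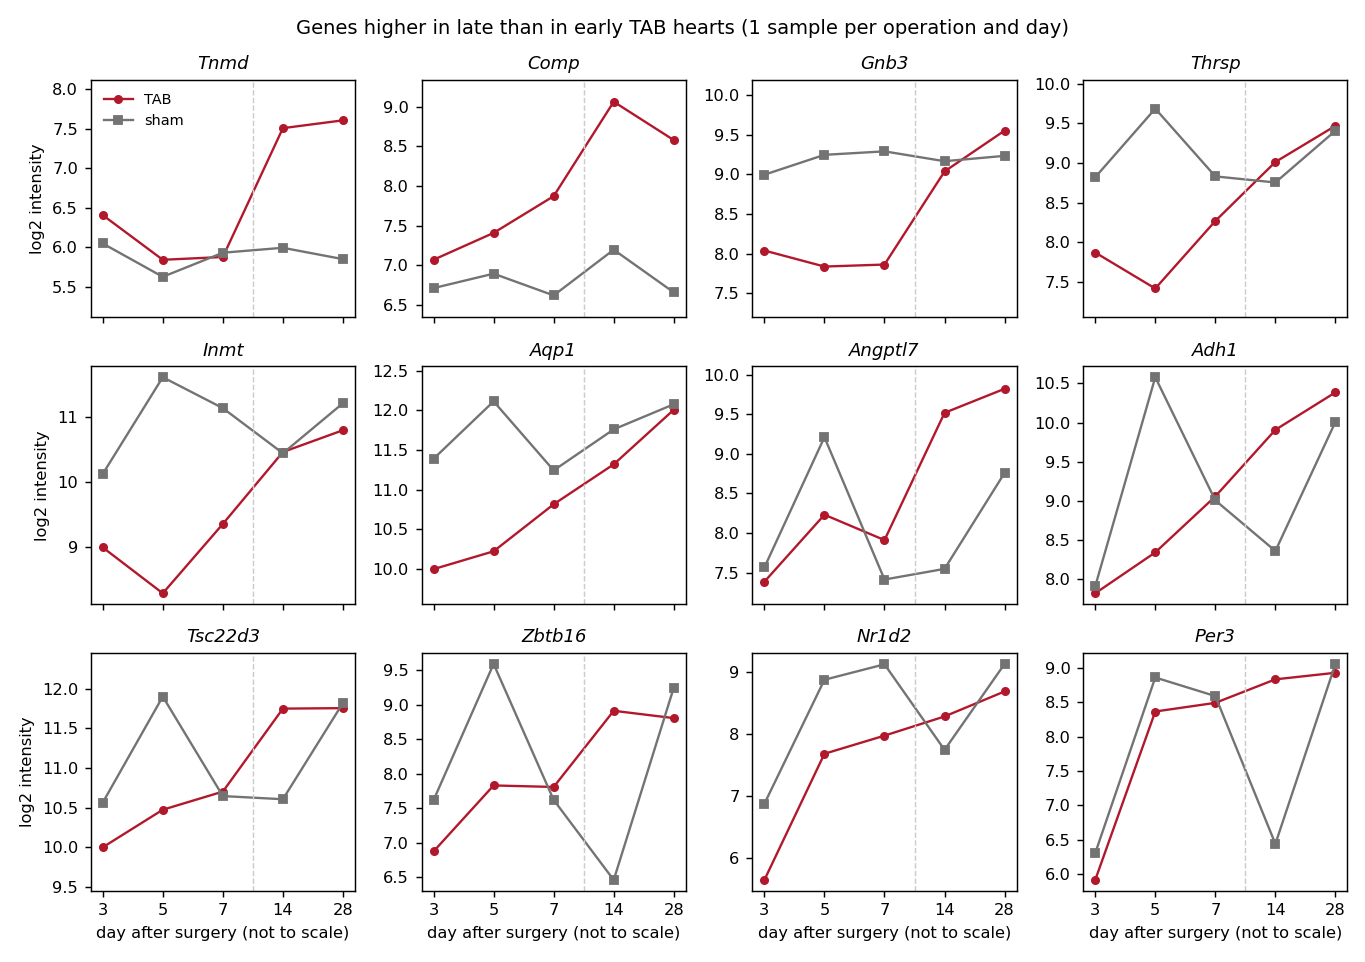
Level (log2 intensity) of 12 genes by day after surgery in TAB (red circles) and sham (grey squares), 1 sample per point, with a dashed line between the early and the late days. Sham is steady in Tnmd, Comp and Gnb3, and swings by over 1 unit between days in Adh1, Tsc22d3, Zbtb16, Nr1d2 and Per3.

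Sham samples of single days varied widely in many of the genes that were higher late. Among the 46 such genes found on all 10 arrays, the sham range over the 5 days exceeded the TAB difference in 22 (47.8%). The median sham range was 1.24 and the median TAB difference 1.24, but a range of 5 single samples and a difference of means are unlike measures. The late minus early difference of these genes in sham had a median of 0.095. Among the 167 separated lower genes the sham range exceeded the difference in 18 (10.8%) and had a median of 0.65, and over all genes found on all 10 arrays its median was 0.46. Zbtb16, a glucocorticoid-induced zinc finger protein, was at 7.62, 9.59, 7.62, 6.46 and 9.25 on days 3, 5, 7, 14 and 28 in sham, and at 6.88, 7.83 and 7.81 early and 8.91 and 8.81 late in TAB. Tsc22d3, the glucocorticoid-induced leucine zipper, was at 10.56, 11.90, 10.65, 10.61 and 11.82 in sham, and at 9.999, 10.47 and 10.70 early and 11.75 and 11.76 late in TAB. Adh1, alcohol dehydrogenase, was at 7.91, 10.58, 9.01, 8.36 and 10.01 in sham. In these 3 genes sham days 5 and 28 were high and sham days 3 and 14 were low, except that Tsc22d3 and Zbtb16 were about as low on day 7.

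Clock genes also varied between sham days. They are genes of the daily rhythm that the heart runs on its own, and the labels give no hour of tissue collection. Of 18 measured, 4 were separated higher late in TAB, Nr1d2, Per3, Per2 and Hlf, and none lower, with a median of 0.53 in TAB and 0.06 in sham, and limma called 0 of them. Per3, a repressor of the clock, was at 5.92, 8.36 and 8.49 early and 8.83 and 8.92 late in TAB and at 6.31, 8.86, 8.59, 6.44 and 9.05 on days 3, 5, 7, 14 and 28 in sham. Dbp, a clock output factor, was at 8.08, 11.49 and 11.53 early and 11.33 and 12.17 late in TAB and at 8.01, 11.49, 12.52, 8.59 and 12.36 in sham, and was not separated. Low values were thus met on TAB day 3 and on sham days 3 and 14. The early means of these 4 genes rested on day 3: without it the differences of Nr1d2, Per3, Per2 and Hlf were 0.66, 0.45, 0.60 and 0.80, all under 1 unit. The brightest probe of Per3 gave 0.19. The summed intensity of the list was 6784 to 10069 in early TAB, 10681 to 13620 in late TAB and 7331 to 15931 in sham. The part of the clock genes' differences in the other genes that were higher late was not tested.

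Genes found on the arrays of only 1 stage were described by a fold value called a bound. Of all 16113 genes tested, 40 were found on all 3 early TAB arrays and on neither late one. On both late arrays and no early one it was 101 of the 16113. The share of tested genes not found was 28.4%, 22.1% and 23.2% on TAB days 3, 5 and 7. On TAB days 14 and 28 it was 24.9% and 20.3%. How far the 2 counts follow these shares was not tested. A bound takes the dim stage at its own value or at the lowest found value of the array, whichever is higher. For Il6 the late spots not found, at 3.14 and 3.35, lay above those lowest values of 2.17 and 2.37. Those values are thus no detection limit, and a bound is a fold of intensities rather than a least size. The direction of these genes follows largely from how they were picked. After Il6, the largest with a higher early mean was Zc3h12d, a ribonuclease relative that restrains inflammation, with a bound of 7.94-fold. Ankrd27 followed with 7.41-fold, 1810011H11Rik with 6.13-fold and AB124611 with 5.78-fold. Another probe of Ankrd27 did not share its direction, and the other probe of 1810011H11Rik gave a smaller TAB difference of -1.16. In the other direction the bound was 5.68-fold in Fam199x, 5.6-fold in 1810012P15Rik, 4.92-fold in Gm8075, 4.84-fold in Otogl and 4.73-fold in Ptgfr, the receptor of prostaglandin F. The probes of 1810012P15Rik, Gm8075 and Otogl were found on all 5 sham arrays, and those of Fam199x and Ptgfr on 2 and 3. Between 6 and 19 probes on a TAB array were not found although the median of the other arrays was above 200, and whether a bound comes from such a spot was not tested.

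Whether the difference between late and early days was itself different in TAB and sham was tested in 1 fit of all 10 samples. Limma called 5 of 16113 genes (0.031%), and listed 1794 at an unadjusted p under 0.05. Sprr1a differed by -4.47 ± 0.40 (SE, adjusted p = 0.025), Serpinb1a by -4.10 ± 0.44 (adjusted p = 0.0428) and Sfn|Gm7850 by -3.07 ± 0.33 (adjusted p = 0.0428), and sham had differences of 0.28, -0.01 and 0.23. The other two were dim. Rfx4 was found on 0 of the 10 arrays, so its call concerns background intensity and gives no level of the gene. Islr2, at 4.25, 4.42 and 4.26 early and 5.25 and 5.11 late in TAB against 5.35, 5.60, 5.78, 4.42 and 4.36 in sham, was found on 2 TAB and 4 sham arrays. Among genes found on all 10 arrays it called 22. With the day as a block it called 0. The count rested on single libraries: it was 168 without sham day 14, of which 146 were higher and 22 lower where the 5 were 1 higher and 4 lower, 13 without TAB day 14, 1 without TAB day 5, TAB day 28 or sham day 5, and 0 without TAB day 3, sham day 3, sham day 7 or sham day 28, the library that stood apart. The 3 largest TAB differences among the 25 genes separated in the same direction in both operations were those of Cxcl5, a neutrophil attractant, Psg16, a placental glycoprotein, and Star, the cholesterol carrier of steroid synthesis, at -2.63, 2.28 and -2.21 in TAB and -1.77, 1.07 and -1.42 in sham. Star was found on all TAB and on no sham array, Cxcl5 on 2 TAB arrays and 1 sham array, and Psg16 on 0 TAB and 0 sham arrays. Another probe of Star gave a TAB difference of -1.22.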

How the data were processed

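Left ventricular RNA of 5 TAB and 5 sham samples was hybridized in a single dye (Cy5) to whole-genome mouse expression arrays. For 26423 probes the deposited value was an unscaled intensity after a background subtraction whose method is not given in the sources used here, with a detection p-value, which was not used here, and a flag score, of which a negative value was read as a spot not found.

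Arrays were brought to the same median, any probe under 1 on at least 1 of the 10 arrays was dropped, and quantile normalization used rank medians over all 10 arrays. These steps follow the study's methods, except that those describe rank medians for each condition, which was tried as an alternative within each operation. The probe whose absolute fold changes summed highest stood for its gene, a choice that favours large differences. Of the probes, 3633 had no symbol and 19976 were kept, for 16113 genes, of which 164 symbols joined several genes. By symbol 14207 were current and 1504 older names in a RefSeq gene table of GRCm38.p6, which also gave the promoter windows.

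Late and early samples were compared on log2 intensity with limma 3.58.1 in R 4.3.3 (lmFit and eBayes, Benjamini-Hochberg adjusted p under 0.05), in TAB, in sham and as the difference between both, after tests on simulated data. Python 3.11.15 with pandas 2.3.3 was used for tables. Groups came from sample titles, and all 10 samples were used. The 10 arrays limit the precision, and p-values measure only the spread between single days. Over all genes the correlation of TAB and sham deviations from their group means was 0.025 to 0.071 over the 5 days, and samples of a shared day were not paired. The values of days 14 and 28 are equal by construction, since each late group has 2 samples. Whether single genes share an effect of the day was not tested, and with the day as a block the test of the difference called 0 genes. Genes named are members of 36 lists, the 15 largest separated differences in each direction among genes found on all TAB arrays, the 5 largest bounds in each direction, the 3 largest differences separated in both operations, and any genes called where 5 or fewer were. The part of the series, the lists and the rules were chosen with earlier results of these data known. Alternatives changed the scaling, offset, filters, probe choice, test and samples.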

Additional observations from a re-analysis of the deposited data

Results flagged for a closer look

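In the test of whether the difference between late and early days itself differed between TAB and sham, limma called 5 of 16113 genes. With the day as a block it called 0 (lowest adjusted p 0.191), as it did without TAB day 3, sham day 3, sham day 7 or sham day 28. The value is the TAB difference minus the sham difference on the log2 scale. It was -4.47, with TAB at -4.19 and sham at 0.28 (SE 0.40, adjusted p = 0.025) for Sprr1a. It was -4.10, with TAB at -4.11 and sham at -0.01 (SE 0.44, adjusted p = 0.0428) for Serpinb1a. The probe of Sfn|Gm7850 gave -3.07, with TAB at -2.85 and sham at 0.23 (SE 0.33, adjusted p = 0.0428). Rfx4, a transcription factor of neural tissue whose probe was found on no array and so reports background intensity, gave -2.31, with TAB at -0.90 and sham at 1.42 (SE 0.20, adjusted p = 0.025). Islr2 gave 2.05, with TAB at 0.87 and sham at -1.19 (SE 0.22, adjusted p = 0.0428). Groups of 2 and 3 samples are too small for a test of single outlying samples.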

How the results depend on the processing

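The count of genes called by limma between late and early TAB was 0 and stayed 0 with median scaling alone, quantile normalization within each operation, the mean of each rank, values below 1 set to 1, the brightest probe or the mean of all probes. It was 300 with 50 added before log2, 229 without the lowest tertile of genes, 417 among genes found on all 5 TAB arrays, 485 with the trend and robust options and 125 with all 10 samples in a single fit, and 0 to 1 without single samples. In sham it was 0 and became 1 with 50 added, with values below 1 set to 1, without the lowest tertile and among found genes, 2 with the trend and robust options, and 0 to 1 without single samples. The count for the difference between TAB and sham was 5 and became 2 with the mean of each rank, 76 with 50 added, 1 with values below 1 set to 1, 9 without the lowest tertile, 22 among found genes and 18 with the trend and robust options. With the day as a replicate block it was 0, with a lowest adjusted p of 0.191 and 1766 genes at an unadjusted p under 0.05. It ranged from 0 to 168 without single samples, the highest without sham day 14. Separated genes in TAB, 293 higher and 552 lower, became 33 and 143 with 50 added, 627 and 836 with values below 1 set to 1, 70 and 201 without the lowest tertile, 47 and 248 among found genes, 23 and 71 at a difference of at least 2, and 2960 and 2842 by order alone. Without single samples, which leaves fewer values to be in order, they were 358 to 525 and 581 to 925. In sham, 171 and 201 became 5 and 27, 503 and 447, 10 and 54, 7 and 50, 9 and 15, and 1990 and 1727 under the same settings in turn, and 270 to 430 and 279 to 687 without single samples. Of 36 list medians, 26 kept their sign under every alternative, and 39 of 504 alternatives moved a median by more than 1 SD of the early days. Among 100 named genes and 1553 alternatives for TAB, 7 reversed: Ankrd27, log2 late minus early in TAB, was 0.15 with its brightest probe. Nppa, log2 late minus early in TAB, was 0.0030 without TAB day 7 and ranged from -0.25 to 0.12 without single samples, the highest without day 28. Atp2a2, log2 late minus early in TAB, was 0.0733 with median scaling alone, 0.13 with quantile normalization within operations, 0.15 with 50 added and 0.15 with its brightest probe. The cause of these changes was not tested. Dim spots limit the comparison: 2007 of the tested genes were found on no array.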
